A study of Anas platyrhynchos with 20 samples.

Results

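The ducks' liver and breast muscle were examined for 6 genes that release fatty acids from lipids or control that release. They are the lipases LPL, LIPC, LIPG and LIPA, the lipase maturation factor LMF1 and the LPL inhibitor ANGPTL4. All were taken by name from the expression table, where 6 of 6 names were found among 25117 genes. The libraries came from males of the Runzhou white-crested duck, a breed of small size, fed a basal diet with either 2% linseed oil or 2% duck oil (the control). The groups were HL (liver, linseed oil), CL (liver, control), HM (breast muscle, linseed oil) and CM (breast muscle, control), with 5 libraries in each and 20 in all, labelled day 28. By the methods of the study, feeding began at 28 days of age, lasted 28 days and ended with a fast before slaughter, and the 10 ducks sequenced were those with the highest n-3 PUFA ratios on linseed oil and the lowest on the control diet. Both tissues came from the same 10 ducks, but whether a shared number (HL1 and HM1) marks a duck is not given in the sources used here.

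Lipoproteins carry triglycerides in the blood, and lipases bound to the vessel wall split them so that tissues can take up the fatty acids. LPL is the main triglyceride lipase of muscle and fat, LIPC (hepatic lipase) is made by liver cells and works on remnants and HDL, and LIPG (endothelial lipase) acts mainly on HDL phospholipids. LIPA is the acid lipase of lysosomes, LMF1 is a membrane protein of the endoplasmic reticulum that lipases of the LPL family need to fold, and ANGPTL4 is a secreted protein, raised in fasting and by PPAR signalling in mammals, that inactivates LPL.

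Values are FPKM, the fragments of a gene scaled by the authors to gene length and to a median-of-ratios size factor of the library. Levels can thus be set side by side between genes, as far as the gene lengths of the table hold. Differences were tested by limma on log2(FPKM + 1), a scale that understates the changes of low genes. Tested genes reached an FPKM of 1 in 5 or more of the compared libraries. A gene was called where its p, adjusted over all genes tested by the Benjamini-Hochberg method, was below 0.05 and its log2 fold change was above 1 or below -1. Liver libraries held 15417718 to 16705165 counted fragments, and breast muscle libraries 11852903 to 13432987. The libraries HL1, CL1 and HM2 stood apart. In the 12 pairs that they formed within their groups the chi-square between recovered fragments was 129 to 270.4 per gene, against 29.3 to 86.2 in the other 28 pairs. Leaving out these 3 together changed the call of none of the 6 genes that could still be tested, and LIPC and LIPG then fell out of the tests that rest on 5 liver libraries.

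The genes lie on 5 chromosomes of the ZJU1.0 duck genome. LPL spans chrZ:52977592-53022410 on the plus strand and LIPG chrZ:2123324-2130947 on the minus strand. LIPC spans chr11:4808423-4880379 on the plus strand, LIPA chr6:19697263-19710355 on the minus strand, LMF1 chr15:15763333-15951816 on the plus strand and ANGPTL4 chr29:3922138-3930886 on the minus strand. Each interval is the whole gene, and the FPKM were computed over the gene lengths of the table, 4023 bases for LPL, 3098 for LIPG, 3108 for LIPC, 3153 for LIPA, 4290 for LMF1 and 6026 for ANGPTL4. The chromosome numbers were taken from the sequence that holds at least 98.6% of the same gene identifiers in the RefSeq gene table of another duck assembly.

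In the livers LIPC had the highest median of the 6 genes and in the breast muscle LPL had. In HL the order of the medians was LIPC (220.4 FPKM), LIPA (50.1), LPL (30.3), LMF1 (7.84), ANGPTL4 (2.53) and LIPG (0.457). In CL it was LIPC (85.1 FPKM), LPL (37.2), LIPA (25.1), LMF1 (11.2), LIPG (2.33) and ANGPTL4 (1.07). Of the neighbours in these orders, LIPC stood above the next gene in 5 of 5 libraries of either group. In HL1, however, LPL (73.7 FPKM) stood above LIPC (63.2 FPKM). The ranges of LIPC, LIPA and LPL overlapped from gene to gene, and only the step down to LMF1 separated the ranges in both groups. In HM the order was LPL (25.8 FPKM), LIPA (17.6), ANGPTL4 (12.3), LMF1 (2.36), LIPG (0.456) and LIPC (0.142). The medians of CM kept the order of HM, with LPL at 34.2 FPKM, LIPA at 19.1, ANGPTL4 at 8.79, LMF1 at 2.46, LIPG at 0.328 and LIPC at 0.114. There the ranges of LIPA and ANGPTL4 overlapped, as did those of LIPG and LIPC, in both groups, and those of LPL and LIPA overlapped in HM alone.

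**Figure D1:**
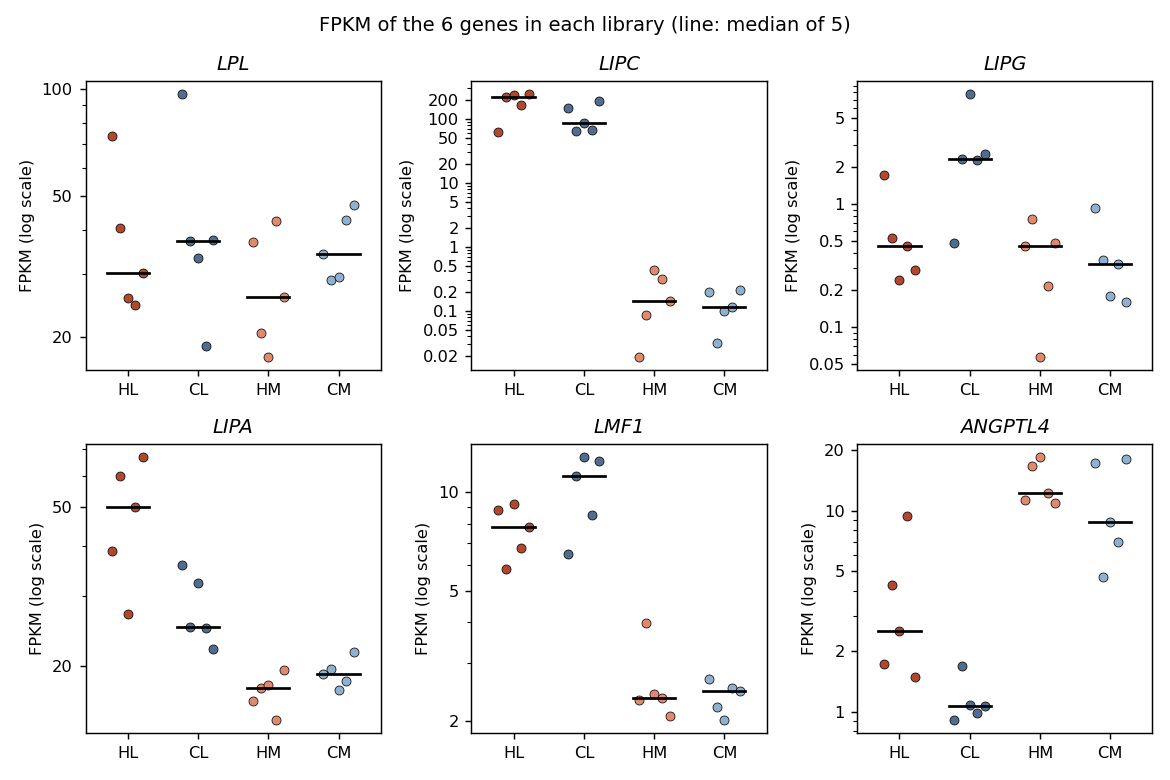
FPKM (log axis, different in each panel) of the 6 genes in HL, CL, HM and CM, 1 point per library and a line at the median of 5. LIPC lies between 63.2 and 244 FPKM in every liver library and at 0.438 FPKM or less in every breast muscle library, and ANGPTL4 has the reverse order, with at least 4.69 FPKM in the breast muscle of the control ducks and at most 1.68 in their livers.

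Between liver and breast muscle, LIPC and LMF1 were higher and ANGPTL4 lower in the liver under both diets, LIPA was higher in the liver under linseed oil, and LPL did not differ beyond the spread between libraries. In HL vs. HM, 4 of the 5 genes tested were called (3 higher and 1 lower in HL), where 40.2% of all genes tested were called (19.8% higher and 20.4% lower). In CL vs. CM, 3 of 5 were called (2 higher and 1 lower in CL), against 42.3% of all genes (20.4% higher and 21.9% lower). LIPC passed the filter through its liver libraries alone, so its call was fixed by its presence in the liver.

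LIPC had 63.2, 220.4, 239.8, 166 and 244 FPKM in HL1 to HL5, against 0.019, 0.0858, 0.438, 0.315 and 0.142 FPKM in HM1 to HM5. Under the control diet it had 147, 65.7, 85.1, 68.3 and 192 FPKM in CL1 to CL5, against 0.196, 0.0316, 0.0987, 0.114 and 0.213 FPKM in CM1 to CM5. No breast muscle library came near any liver library. HL vs. HM gave a log2 fold change of 7.15 ± 0.325 (SE; limma, adjusted p = 1.26e-09), and CL vs. CM 6.51 ± 0.272 (adjusted p = 2.88e-10). On the linear scale the means were 933 times higher in HL than in HM and 854 times higher in CL than in CM. The breast muscle values rest on 1 to 23 fragments in HM and 2 to 12 in CM. The level in muscle was 0.107% of that in the liver for HM over HL and 0.117% for CM over CL, while the summed FPKM of 10 liver markers was 0.103% and 0.0469% of the liver's in the same pairs. HM2 had the highest liver marker sum of the breast muscle libraries (392 FPKM) and HM3 the highest LIPC. The part of carried-over liver RNA in the muscle values of LIPC was not tested. In these bulk samples fewer cells of a type and less RNA per cell cannot be told apart.

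LMF1 was several times higher in the liver. It had 8.81, 5.81, 9.22, 6.76 and 7.84 FPKM in HL1 to HL5, against 2.32, 3.99, 2.41, 2.36 and 2.07 FPKM in HM1 to HM5. In the control ducks it had 6.48, 11.2, 12.8, 8.53 and 12.5 FPKM in CL1 to CL5, against 2.69, 2.20, 2.02, 2.52 and 2.46 FPKM in CM1 to CM5. The tissues did not overlap under either diet, and HM2 stood above the other 4 HM libraries. On the log2 scale HL vs. HM gave 1.27 ± 0.171 (limma, adjusted p = 3.18e-05) and CL vs. CM 1.71 ± 0.177 (adjusted p = 1.87e-06). The means were 2.92 times higher in HL than in HM and 4.33 times higher in CL than in CM.

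ANGPTL4 was the only one of these genes called lower in the liver. It had 1.73, 4.28, 2.53, 9.42 and 1.48 FPKM in HL1 to HL5, against 11.3, 16.8, 18.5, 12.3 and 10.9 FPKM in HM1 to HM5. In the control ducks it had 0.912, 1.68, 1.07, 0.985 and 1.07 FPKM in CL1 to CL5, against 17.2, 4.69, 8.79, 6.98 and 18.0 FPKM in CM1 to CM5. The tissues did not overlap under either diet, though HL4 came close to the lowest HM library. Its log2 fold change was -1.80 ± 0.348 for HL vs. HM (limma, adjusted p = 0.000594) and -2.36 ± 0.301 for CL vs. CM (adjusted p = 1.37e-05). The mean of HL was 0.279 times that of HM (0.180 without HL4) and the mean of CL 0.103 times that of CM.

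LIPA had 38.8, 59.9, 27.1, 50.1 and 66.9 FPKM in HL1 to HL5, against 16.4, 17.6, 18.0, 14.7 and 19.6 FPKM in HM1 to HM5. In the control ducks it had 35.9, 25.1, 32.3, 24.9 and 22.1 FPKM in CL1 to CL5, against 19.1, 19.7, 17.5, 18.4 and 21.7 FPKM in CM1 to CM5. Every liver library lay above every breast muscle library of its diet, by a wide margin in the linseed oil ducks and with CL5 just above CM5 in the controls. HL vs. HM gave a log2 fold change of 1.38 ± 0.221 (limma, adjusted p = 0.000136). For CL vs. CM it was 0.50 ± 0.153, which passed the p threshold (limma, adjusted p = 0.0116) and not the fold threshold.

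LPL was high in both tissues. It had 73.7, 40.5, 25.7, 24.6 and 30.3 FPKM in HL1 to HL5, against 36.9, 20.5, 17.5, 42.4 and 25.8 FPKM in HM1 to HM5. In the control ducks it had 96.7, 37.2, 33.4, 18.9 and 37.4 FPKM in CL1 to CL5, against 34.2, 28.9, 29.5, 42.7 and 47.1 FPKM in CM1 to CM5. The tissues overlapped under both diets, and the highest value of each liver group was in the library numbered 1. With a log2 fold change of 0.38 ± 0.320 for HL vs. HM (limma, adjusted p = 0.313) and 0.11 ± 0.337 for CL vs. CM (adjusted p = 0.794), neither difference passed. The summed FPKM of 4 fat cell markers in the breast muscle was 81.6 to 205 in HM and 76.6 to 144 in CM, and nearly all of it was adiponectin (ADIPOQ), with a mean of 124 FPKM in HM and 109 FPKM in CM, while the lipid droplet genes PLIN1 and CIDEC averaged 1.54 FPKM or less. HM4 had the highest sum and the highest LPL of HM, but CM3, with the highest sum of CM (144), had the second lowest LPL of CM. The part of fat cells in the LPL of muscle was not tested. Without HL1, CL1 and HM2 the log2 fold changes of LPL were 0.03 for HL vs. HM and -0.22 for CL vs. CM.

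LIPG was low in 3 of the 4 groups and was tested in neither tissue comparison. It had 1.70, 0.533, 0.239, 0.457 and 0.291 FPKM in HL1 to HL5, against 0.456, 0.753, 0.0573, 0.217 and 0.482 FPKM in HM1 to HM5. In the control ducks it had 0.478, 2.33, 7.75, 2.26 and 2.52 FPKM in CL1 to CL5, against 0.923, 0.349, 0.178, 0.328 and 0.161 FPKM in CM1 to CM5. The linseed oil groups overlapped almost wholly, and in the controls all CL libraries but CL1 lay above all CM libraries. HL minus HM was 0.20 in mean log2(FPKM + 1) by an exact two-sided permutation test (p = 0.444). CL minus CM was 1.34 (exact permutation test, p = 0.0159, unadjusted). With 5 libraries against 5, the smallest p that this test can give is 0.00794.

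The directions of LPL and LIPA between the tissues depended on how the libraries were scaled. A library's summed FPKM was 510246 to 817538 for livers and 335064 to 597368 for breast muscles. Scaling every library to the same sum moved the median log2 fold change of all genes to -0.59 (HL vs. HM) and -0.91 (CL vs. CM), against 0.01 and 0.02 as deposited. Under that scaling LPL was at -0.27 (HL vs. HM) and -0.92 (CL vs. CM), and LIPA at 0.74 and -0.51 in the same order. Relative to the shifted median these were 0.32 and -0.02 for LPL and 1.34 and 0.39 for LIPA. LMF1 fell below the fold threshold, at 0.81 and 0.93, or 1.40 and 1.84 relative to the median. ANGPTL4 kept its direction and calls under all scalings tried. LIPC did too, but its call was fixed by its presence in the liver. Of the scalings, the median-ratio scaling nearly repeats that of the deposited values.

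**Figure D2:**
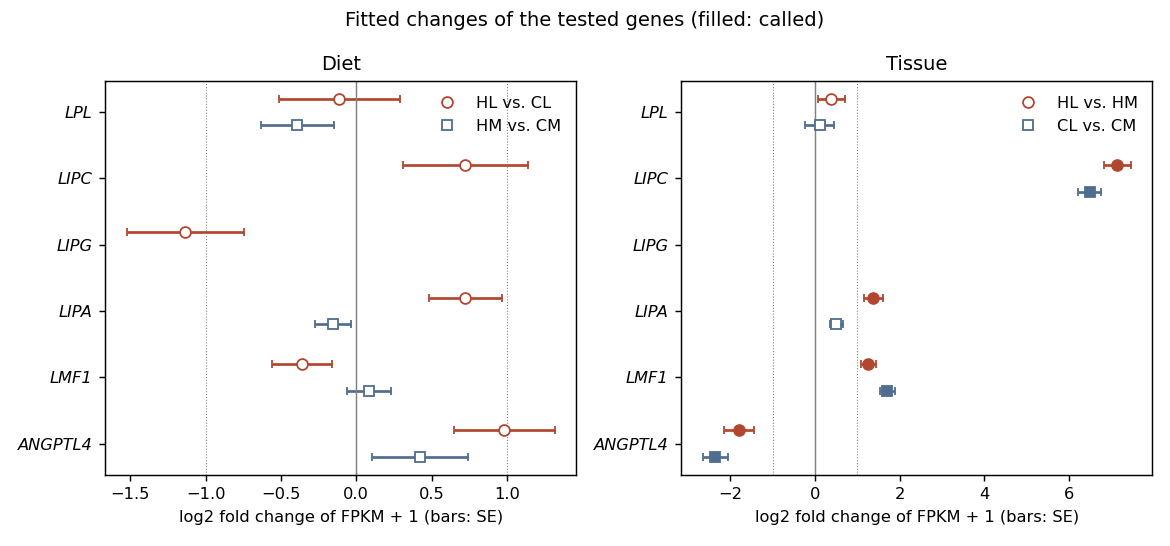
Log2 fold changes of FPKM + 1 with their standard errors from limma, for the genes tested in each comparison, with dotted lines at the fold threshold and filled symbols for called genes. In the diet comparisons (left) no symbol is filled, and in the tissue comparisons (right) LIPC reaches 7.15 and 6.51 and ANGPTL4 -1.80 and -2.36.

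In the liver, linseed oil against the control diet gave no call among these genes by limma. The study, by DESeq2 with the same thresholds, lists ANGPTL4 among the genes upregulated in the liver. The study also called many more genes in the liver than limma did here (12 of 9543). The results of the tests thus differed over all genes and not for ANGPTL4 alone. LIPA and ANGPTL4 had higher means and LIPG a lower mean in HL, each past an unadjusted p of 0.05 and none past the adjusted threshold. Of 6 genes tested in HL vs. CL, 0 were called, where 0.126% of all genes tested were (12 of 9543). An unadjusted p below 0.05 was found for 3 of the 6 and for 12.3% of all genes, and voom on the recovered fragments also called 0 of the 6. LIPG passed the filter through 4 CL libraries and 1 HL library, so it had to be lower in HL.

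ANGPTL4 was at 1.48 FPKM or more in every HL library and at 1.07 FPKM or less in 4 of 5 CL libraries. The mean was 3.89 ± 3.28 FPKM in HL and 1.15 ± 0.306 FPKM in CL (SD, n = 5 each), a ratio of 3.40. HL4, at 9.42 FPKM, stood highest, followed by HL2 at 4.28 FPKM. Without HL4 the ratio was 2.19 and the log2 fold change 0.66, and the ratio of the medians was 2.36. The groups overlapped by CL2, which at 1.68 FPKM lay above HL5. HL vs. CL gave 0.98 ± 0.336 on the log2 scale (limma, unadjusted p = 0.013, adjusted p = 0.256). The exact permutation test of the same values gave p = 0.0159. The values rest on 99 to 802 fragments in HL and 52 to 118 in CL.

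LIPA averaged 48.5 ± 16.0 FPKM in HL and 28.1 ± 5.76 FPKM in CL (SD, n = 5 each), a ratio of 1.73. All HL libraries but HL3 stood above the highest CL library, CL1. Its log2 fold change was 0.72 ± 0.244 (limma, unadjusted p = 0.0121, adjusted p = 0.252), and the exact permutation test gave p = 0.0317.

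LIPG averaged 0.644 ± 0.602 FPKM in HL and 3.07 ± 2.74 FPKM in CL (SD, n = 5 each), a ratio of 0.210. The ratio was 0.124 without HL1 and 0.339 without CL3. The HL1 and CL1 libraries crossed, since HL1 was the highest of HL and CL1 the lowest of CL. On the log2 scale the difference was -1.14 ± 0.389 (limma, unadjusted p = 0.0132, adjusted p = 0.256), and the exact permutation test gave p = 0.0238. Without CL1 it was -1.44 and passed both thresholds (limma, adjusted p = 0.0494), but then 99 of all 9445 genes were called. LIPG passed the filter mostly through CL libraries, so its direction was set beforehand and these p-values lend it no support. It fails the filter without HL1 or any other CL library, and over the 5 libraries whose removal left it testable it ranged from -1.44 to -1.05, with adjusted p from 0.0494 to 0.532 (limma). The values rest on 9 to 67 fragments in HL and 14 to 252 in CL.

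Marker genes of macrophages and endothelial cells were mostly higher in HL than in CL. The summed FPKM of 9 macrophage markers was 108.9 to 546 in HL (median 447) and 37.9 to 175 in CL (median 49.7), with 9 of 9 markers higher in their HL mean (exact permutation test of the sum, p = 0.0159). The summed FPKM of 13 endothelial cell markers was 60.4 to 77.1 in HL and 20.7 to 48.6 in CL, with 12 of 13 higher in their HL mean (exact permutation test, p = 0.00794). Of these, 1 of 9 macrophage markers tested and 2 of 10 endothelial markers tested were called, against 0.126% of all genes. They were the mannose receptor MRC1 of macrophages at 1.93 on the log2 scale, the vascular cadherin CDH5 at 1.34 and the sinusoidal scavenger receptor STAB2 at 1.59. The 7 stellate cell and fibroblast markers had a mean sum of 110.8 in HL and 97.3 in CL (exact permutation test of the sum, p = 0.206). The 4 fat cell markers summed to 11.8 to 34.0 in HL and 14.4 to 31.6 in CL, and the 10 liver markers had a median log2 fold change of -0.42, against -0.03 for all genes.

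The order of LIPA in the livers was set beside the macrophage marker sum. HL3, the HL library with the lowest LIPA, had the lowest macrophage sum of HL (108.9 FPKM), and CL1, the CL library with the highest LIPA, had the highest of CL (175 FPKM). HL5 and HL2, with the highest LIPA of all livers, had sums of 545 and 546 FPKM. CL3 and CL4 stood off this order, CL3 with the second highest LIPA of CL and a sum of 49.7 FPKM, and CL4 with the second lowest LIPA of CL and a sum of 70.3 FPKM. LIPG was lower in the group with the higher endothelial sums, though within CL the library with the lowest endothelial sum, CL1, also had the lowest LIPG. The part of macrophages or endothelial cells in the LIPA, LIPG and ANGPTL4 values was not tested.

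**Figure D3:**
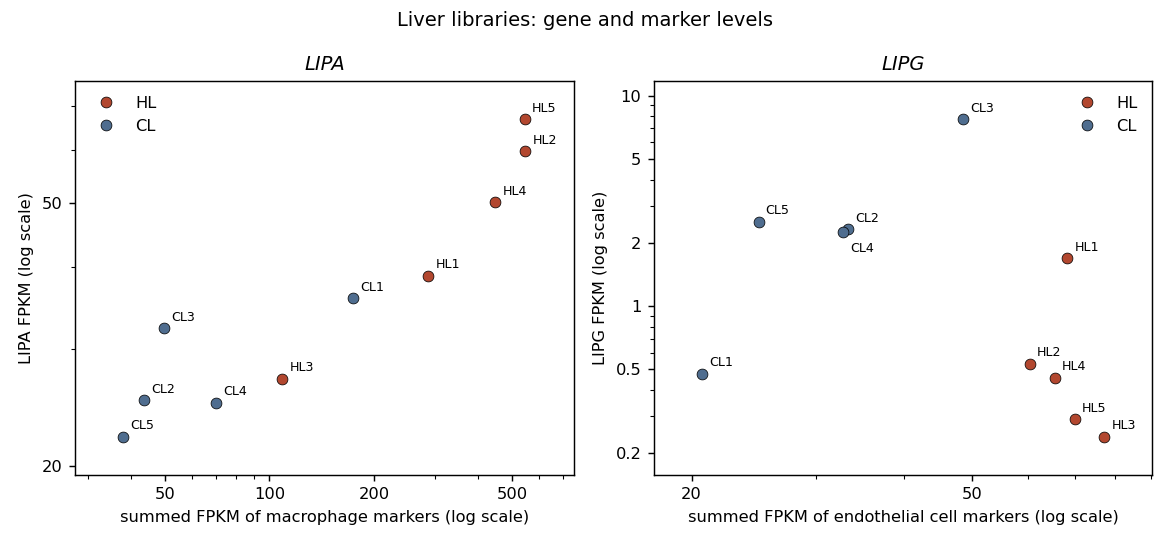
LIPA FPKM against the summed FPKM of 9 macrophage markers (left) and LIPG FPKM against the summed FPKM of 13 endothelial cell markers (right) in the 10 liver libraries, all axes log. On the left HL3 and CL1 lie between the bulk of the 2 diets in their macrophage sum (108.9 and 175), with HL3 among the CL libraries in its LIPA, and on the right all HL libraries have an endothelial sum of at least 60.4 and all CL libraries at most 48.6.

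The other 3 genes did not reach an unadjusted p of 0.05 between the diets in the liver. LIPC averaged 187 ± 75.8 FPKM in HL and 112 ± 55.8 FPKM in CL, a ratio of 1.67 (2.59 for the medians), with a log2 fold change of 0.72 ± 0.413 (limma, adjusted p = 0.521). The 2 groups overlapped, since HL1 was the lowest liver library. Without HL1 and CL1, left out after the data were seen, the log2 fold change was 1.21 (limma, adjusted p = 0.0646). Of all genes, 139 of 9318 were then called, against 12 with every library kept. LMF1 averaged 7.69 ± 1.42 FPKM in HL and 10.3 ± 2.73 FPKM in CL, with a log2 fold change of -0.36 ± 0.197 (limma, adjusted p = 0.50). LPL averaged 38.9 ± 20.4 FPKM in HL and 44.7 ± 30.0 FPKM in CL, with a log2 fold change of -0.11 ± 0.402 (limma, adjusted p = 0.930) that was positive under quantile normalization (0.02), under equal summed FPKM (0.14) and without CL1 (0.21).

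In the breast muscle 0 of the 4 genes tested were called in HM vs. CM, where 0% of the 10148 genes tested were called by limma. The study did call genes in this comparison by DESeq2, so the 0% holds for limma on FPKM. An unadjusted p below 0.05 was found for 0 of the 4 and for 558 of all genes (5.5%), and voom on the recovered fragments also called 0 of the 4. LPL averaged 28.6 ± 10.7 FPKM in HM and 36.5 ± 8.12 FPKM in CM (SD, n = 5 each), with a log2 fold change of -0.39 ± 0.245 (limma, adjusted p = 0.921). ANGPTL4 averaged 13.9 ± 3.46 FPKM in HM and 11.1 ± 6.10 FPKM in CM, with a log2 fold change of 0.43 ± 0.318 (limma, adjusted p = 0.941). The CM libraries of ANGPTL4 were spread wide, with CM1 and CM5 above most of HM and CM2, CM3 and CM4 below all of it.

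LIPA was the steadiest member in the breast muscle, at 17.3 ± 1.83 FPKM in HM and 19.3 ± 1.60 FPKM in CM, with a log2 fold change of -0.16 ± 0.120 (limma, adjusted p = 0.946). LMF1 averaged 2.63 ± 0.772 FPKM in HM and 2.38 ± 0.269 FPKM in CM, with a log2 fold change of 0.08 ± 0.145 (limma, adjusted p = 1.0) that was at 0.00 under equal summed FPKM and -0.04 without HM2. LIPC and LIPG did not pass the filter in the breast muscle. Their mean log2(FPKM + 1) differed by 0.08 and 0.01 in HM minus CM (exact permutation tests, p = 0.468 and p = 0.944).

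Whether the diet difference was the same in both tissues was tested as the interaction of diet and tissue over all 20 libraries. Of 6 genes 0 were called by limma, and 0 by voom, where 0.00888% of all genes were (1 of 11256). LIPA had the smallest p, with a diet change 0.88 ± 0.272 higher in the liver than in the breast muscle on the log2 scale (limma, unadjusted p = 0.00415, adjusted p = 0.334). With each library left out it ranged from 0.75 to 1.07, with adjusted p from 0.0458 to 0.552 (limma). It passed both thresholds without HL3 alone, where 50 of all 11226 genes were called. LIPG was at -1.15 ± 0.448 (limma, unadjusted p = 0.0187, adjusted p = 0.468). It reached 1 FPKM in liver libraries alone, mostly of CL, so the filter favoured a negative value. The other 4 genes were between -0.44 and 0.65, with adjusted p from 0.693 to 0.947 in limma. An unadjusted p below 0.05 was thus found for 2 of 6, against 8.11% of all genes. LIPG is among these 2, so the count is partly an effect of the filter.

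The ratio of ANGPTL4 to LPL, the inhibitor over its target enzyme, was looked at after the values of both were known and is given without a test. It was 0.0235, 0.106, 0.0985, 0.383 and 0.0489 in HL1 to HL5, against 0.00943, 0.0452, 0.0322, 0.0522 and 0.0287 in CL1 to CL5. In the breast muscle it was 0.305, 0.819, 1.06, 0.290 and 0.422 in HM1 to HM5, against 0.503, 0.162, 0.298, 0.163 and 0.382 in CM1 to CM5. By FPKM over the gene lengths of the table, ANGPTL4 was thus below LPL in every library but HM3. The control livers had the lowest ratios as a group. In fragments, ANGPTL4 was above LPL in HM2 as well (1515 against 1235), so the order depends on the lengths used.

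**Figure D4:**
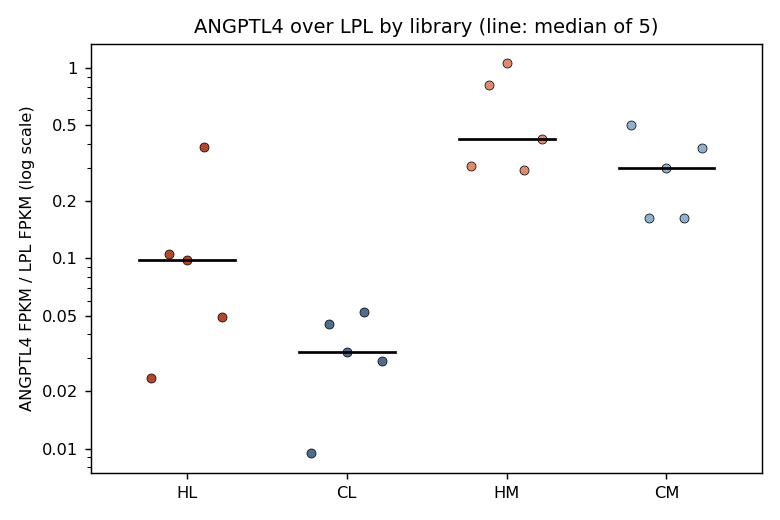
The ratio of ANGPTL4 FPKM to LPL FPKM in all 20 libraries on a log axis, with 1 point per library and a line at the median of 5. The median ratio is 0.0985 in HL, 0.0322 in CL, 0.422 in HM and 0.298 in CM.

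A further 9 lists of related genes were set beside the members. In HL vs. CL 0 of their genes were called, and in HM vs. CM 0 were. The genes that activate, inhibit or cleave LPL had a median of -0.43 on the log2 scale over the 7 tested in HL vs. CL, with 1 of 7 positive, beside a median of -0.03 for all genes. The 19 PPAR target genes tested had a median of 0.40, with 16 of 19 positive. The 18 lysosomal genes had a median of 0.13, with 13 positive. The 12 genes responsive to fasting, glucocorticoids or hypoxia had a median of -0.15, with 2 positive. An unadjusted p below 0.05 was found for 2 of 19 PPAR targets, 4 of 18 lysosomal genes and 4 of these 12, beside 12.3% of all genes. The medians of the other 5 lists lay between -0.21 and 0.09. In HM vs. CM the medians ran from -0.28 for the other angiopoietin-like and angiopoietin genes to 0.28 for the PPAR targets, beside -0.0034 for all genes. Of the PPAR targets 16 of 16 tested were positive. An unadjusted p below 0.05 (limma) was found for 2 of these 16, beside 5.5% of all genes.

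Between the tissues the lists held called genes in both directions, given as log2 fold changes, first for the linseed oil ducks (HL vs. HM) and then for the controls (CL vs. CM). Their counts stand beside 19.8% of all genes called higher and 20.4% lower in HL than in HM, and 20.4% higher and 21.9% lower in CL than in CM. For 10 of the 56 list genes called in HL vs. HM and 11 of the 62 in CL vs. CM, no library of the lower tissue reached 1 FPKM, so they passed the filter through a single tissue and their direction was fixed. Of the genes named, these were SORL1, ACSL5, FABP3 and PFKFB3 in both comparisons, FABP1 in HL vs. HM and VLDLR in CL vs. CM. Of the LPL activators, inhibitors and cleaving enzymes, 6 of 7 were higher in HL than in HM and 6 of 7 in CL than in CM, and none was lower. The largest change was that of the LPL inhibitor APOC3, with a log2 fold change of 9.29 for HL against HM and 9.81 for CL against CM. All 4 HDL genes tested were higher in the liver in both comparisons, led by APOA1 (8.48 and 9.66), the main HDL protein, and LCAT (6.10 and 6.80), which esterifies its cholesterol.

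In the lipase family and intracellular lipolysis list, 2 genes were higher and 2 lower in HL than in HM, and 2 higher and 3 lower in CL than in CM. PLA1A, a phospholipase of the LPL family, was higher in the liver (4.13 and 4.22), as was LIPI (4.12 and 4.35). G0S2, the inhibitor of adipose triglyceride lipase, was lower in the liver (-6.89 and -5.70), and so was PNPLA2, which encodes that lipase (-3.34 and -3.48).

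Of the genes for lipase folding, export and docking at the cell surface, 6 of 11 were higher and 3 lower in the liver in each comparison. The heparan sulfate proteoglycan SDC1 (2.87 and 2.83) and the sorting receptor SORL1 (2.80 and 3.06) were higher, and the basement membrane proteoglycans HSPG2 (-3.73 and -4.65) and COL18A1 (-2.26 and -2.24) lower. Among the receptors, SCARB1, which takes up HDL lipid, was higher in the liver (1.62 and 1.97) and VLDLR, which takes up triglyceride-rich particles in muscle and fat, lower (-3.98 and -4.12). The second largest change up among the receptors was that of LRP1 in HL vs. HM (1.07) and of the fatty acid receptor CD36 in CL vs. CM (1.72). Of the other angiopoietin-like and angiopoietin genes, 1 of 4 was higher and 2 lower in HL than in HM. In CL vs. CM 1 of 5 was higher and 3 lower. ANGPT2 (-3.11 and -3.64) and ANGPTL2 (-2.64 and -2.61) were among those lower, as ANGPTL4 was.

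Beside LIPA, 7 of 18 lysosomal genes were higher and 2 lower in HL than in HM, and 8 higher and 2 lower in CL than in CM. The protease CTSL led them (2.95 and 3.05), followed by the galactosidase GLB1 (2.06 and 2.00). The transcription factors TFEB (-1.50 and -1.47) and MITF (-1.39 and -1.90), which switch on lysosomal genes in mammals, were lower in the liver. Of 20 PPAR targets, 11 were higher and 3 lower in HL than in HM, and 10 higher and 3 lower in CL than in CM. In HL vs. HM ACSL5 (7.08), which activates fatty acids, was among those higher, and the largest changes down were those of FABP3 (-6.84) and CPT1B (-5.75). In CL vs. CM the fatty acid binding protein FABP1 (7.0) was among those higher, and FABP3 (-6.62) and CPT1B (-6.11) again had the largest changes down. Of the 13 genes responsive to fasting, glucocorticoids or hypoxia, 1 was higher and 4 lower in HL than in HM, and 2 higher and 5 lower in CL than in CM. EGLN3 (4.93 and 4.72) was higher in the liver in both comparisons and KLF15 (1.5) in CL vs. CM, while DDIT4 (-4.63 and -5.09) and PFKFB3 (-3.92 and -4.22) were lower.

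The members did not vary together in a way that held across the pairs. Over 15 pairs of genes in the 10 liver libraries and 6 pairs in the 10 breast muscle libraries, 0 of 21 correlations had an adjusted p below 0.05. The strongest was that of LIPG and LMF1 in the liver, with Pearson's r = 0.78 (permutation p = 0.00783, adjusted p = 0.164) and Spearman's rho = 0.61 (permutation p = 0.0673, adjusted p = 0.507). It was 0.59 without CL3 and CL5, the libraries farthest from the median of LIPG, and 0.67 after centring on the diet means. LIPA and LMF1 had r = -0.70 in the liver (permutation p = 0.0269, adjusted p = 0.229) and rho = -0.66, with r = -0.65 without HL5 and HL2 and -0.54 after centring. LPL and ANGPTL4 had r = -0.28 in the liver (permutation p = 0.432) and -0.19 in the breast muscle (permutation p = 0.588). In the liver r was -0.06 without CL1 and HL1 and -0.30 after centring. In the breast muscle it turned to 0.41 without HM3 and HM2 and was -0.03 after centring.

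The genes whose levels ran most like each member within a tissue were found by Pearson's r over 10 libraries, after centring on the diet means, as a description without a test. All points share library and depth, and the highest of that many correlations is high by selection. In the liver, among 8180 genes, LIPA ran most closely with LGMN (r = 0.98), a lysosomal protease, followed by ADCY7 and WASF3 (0.93 each). LGMN had 72.0, 113, 42.6, 100.3 and 125 FPKM in HL1 to HL5, with HL3 lowest and HL5 highest as for LIPA. It had 86.1, 70.2, 88.2, 60.6 and 59.1 FPKM in CL1 to CL5. There CL5 was lowest as for LIPA, but LGMN was highest in CL3 and LIPA in CL1. Without centring, r of LIPA and LGMN was 0.86. LPL ran with LPGAT1 (0.97), ARFRP1 (0.96) and FGG (0.96), a fibrinogen chain. HL1 and CL1, far the highest in LPL of their groups, stood apart over all genes, and r without them was not computed. LIPC ran with TFAM (0.93), MAP9 (0.92) and UGT8 (0.91), and LIPG with AREL1 (0.93), SLC22A23 (0.92) and PTGES3L (0.92). LMF1 ran with NPB (0.96), UROD (0.93) and PMM1 (0.93), and ANGPTL4 with EDA2R (0.92), FAM189A2 (0.89) and PANK4 (0.89).

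In the breast muscle, among 8839 genes, the leading genes were others. LPL ran with UBE2J1 (0.94), CUL1 (0.93, but -0.17 without centring) and GATA3 (0.91), and LIPA with MFSD2A (0.95) and GNPDA2 (0.94). LMF1 ran with TBCC (0.95), TADA1 (0.95) and EXOSC9 (0.95). HM2, far the highest of HM in LMF1, stood apart over all genes, and r without it was not computed. ANGPTL4 ran with EIF3B (0.90), NT5C3A (0.89) and EEF2 (0.89). LIPC and LIPG were too low in the breast muscle for this search. Without centring, r was 0.47 to 0.96 for the genes named here in either tissue other than CUL1.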

How the data were processed

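The members and the gene lists were chosen with earlier results of these data known. RNA was extracted with Trizol, poly-T beads gave the mRNA, and HISAT2 2.0.5 aligned the clean reads to the ZJU1.0 duck genome. Uniquely mapped reads were used for quantification, and the counting tool and strand setting are not given in the sources used here. The authors deposited FPKM values for 25117 genes in 20 libraries, with 4367 genes at 0 throughout. Since 100% of the values came out as whole fragments (tolerance 0.01), fragments per gene were recovered. The deposited values had already been scaled by median-of-ratios size factors. Of the gene identifiers, 20868 matched the RefSeq gene table of the IASCAAS Pekin duck assembly, used for names and chromosome numbers alone.

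Tests used limma 3.58.1 (R 4.3.3; lmFit, eBayes with trend) on log2(FPKM + 1), fitted on the 10 libraries of each comparison and on all 20 for the interaction, with the study's thresholds (adjusted p below 0.05, log2 fold change above 1 or below -1). The count test of the study was replaced because the deposited unit is FPKM. This was a choice, since fragments per gene could be recovered, and voom on them was run as an alternative. The fit was tested on simulated data, and the outcome is not reported here. Exact permutation tests are two-sided. Correlations used 100000 permutations and were adjusted over 21 pairs. Over 40 pairs of libraries within groups, recovered fragments differed beyond sampling noise (chi-square 29.3 to 270.4 per gene). In the diet comparisons p-values rest on the spread between the selected ducks of each diet in 1 feeding trial. These ducks had the highest n-3 PUFA ratios on linseed oil and the lowest on the control diet. Diet and selection cannot be told apart. The pen of each duck is not given in the sources used here, so shared pens were not taken into account. The tissue and interaction tests treated all libraries as independent. Both tissues came from the same ducks, which the p-values of those tests do not take into account.

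Genes were named by a rule: all members, every called gene of a list in the diet comparisons, the largest called changes of a list in the tissue comparisons, and the 3 genes most like each member. A few genes that it names are not reported here. The ANGPTL4 to LPL ratio was added after its values were seen. Of 8 red blood cell markers none was found by name, so that check is void. Alternatives were pseudocounts of 0.1 and 0.5, no filter, an FPKM of at least 5, quantile, summed-FPKM and median-ratio scaling, robust eBayes, all 20 libraries in 1 fit, no fold threshold, voom on the recovered fragments, a replicate block by number, leaving out each library and, chosen after seeing the data, leaving out HL1, CL1 and HM2 together. Figures were drawn with matplotlib 3.10.9.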

Additional observations from a re-analysis of the deposited data

Results flagged for a closer look

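In 24 groups of 5 libraries (6 genes in 4 groups), 6 libraries stood apart from the other 4 by more than Dixon's limit of 0.71 of the group's range. For normally distributed values chance gives about 1 such library in 20 groups, but the limit was applied to FPKM without logs. All 6 libraries were the highest of their groups, and the chance rate for such values was not determined. In the livers these were CL1 for LPL (96.7 FPKM), HL1 and CL3 for LIPG (1.70 and 7.75 FPKM) and CL2 for ANGPTL4 (1.68 FPKM). In the breast muscle they were CM1 for LIPG (0.923 FPKM) and HM2 for LMF1 (3.99 FPKM). No library stood apart for LIPC or LIPA.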

How the results depend on the processing

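The LMF1 and ANGPTL4 tissue differences kept their direction under every alternative that could be fitted (ANGPTL4 could not be fitted in CL vs. CM at an FPKM of at least 5). The direction of LIPC was fixed by its presence in the liver, so the alternatives could not turn it. LIPC could not be fitted without a liver library. The number of the 6 genes called in HL vs. CL was 0 to 1 when each library was left out in turn (LIPG, without CL1), in HM vs. CM 0 to 0, in CL vs. CM 2 to 3, in HL vs. HM 3 to 4, and in the interaction 0 to 1 (LIPA, without HL3). Losing LIPC lowers the tissue counts, and the direction of LIPG in HL vs. CL was set by the filter. With libraries scaled to the same summed FPKM, 2 were called in HL vs. HM. Under that scaling LPL was at 0.14 in HL vs. CL, -0.27 for HL vs. HM and, for CL vs. CM, -0.92 (limma, adjusted p = 0.0188), LIPA at -0.51 in CL vs. CM (adjusted p = 0.0088), LMF1 at -0.00057 in HM vs. CM and LIPG at -0.062 in HM vs. CM, each with its sign turned. Quantile normalization turned LPL to 0.023 in HL vs. CL and -0.42 in CL vs. CM, and a pseudocount of 0.1 turned LIPG to -0.0097 in HM vs. CM. With each library left out in turn, LPL ranged from -0.37 to 0.21 in HL vs. CL and from -0.22 to 0.36 in CL vs. CM, LMF1 from -0.036 to 0.14 and LIPG from -0.079 to 0.13 in HM vs. CM. Leaving out HL1, CL1 and HM2 together turned LPL to -0.22 in CL vs. CM and LMF1 to -0.036 in HM vs. CM. The causes of these turns were not tested.

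Of all genes, 12 were called in HL vs. CL, 5 with a pseudocount of 0.1, 3 without a filter, 4 at an FPKM of at least 5, 58 under summed-FPKM scaling, 83 with all 20 libraries in 1 fit, 21 with no fold threshold, 27 by voom, and 3 to 99 with each library left out (99 without CL1, 60 without HL3), and 139 without HL1 and CL1. In HM vs. CM 0 were called, and 3 with all 20 libraries in 1 fit. HL vs. HM called 6665 with no fold threshold, against 4203, and CL vs. CM 7025, against 4456. The interaction called 1 gene, 0 with a pseudocount of 0.1 or by voom, 1 to 50 with each library left out, and 16 without HL1, CL1 and HM2. The replicate number as a block called 0 of all genes in HL vs. CL, 1 in HM vs. CM and 0 in the interaction, and changed no member's call. Libraries with the same number deviated together with correlations of -0.163 to 0.366, but both ends of this range are from pairs of different diets. Between liver and breast muscle of one diet, where a number could mark a duck, the correlations were -0.123 to 0.264. They cannot show whether a number marks a duck, and the libraries were not paired because no source used here says so. After centring on the diet means, the correlations in the liver moved to -0.11 for LIPG and LIPA, -0.059 for LIPG and ANGPTL4 and 0.065 for LIPA and ANGPTL4. LIPC and LIPG in the breast muscle rest on 1 to 47 fragments, which limits what a difference there could show.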
